A study of Mus musculus with 18 samples.

Results

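The transcripts described here encode 8 chemokines of the CXC class, Cxcl1, Cxcl2, Cxcl3, Cxcl5, Cxcl9, Cxcl10, Cxcl11 and Cxcl16, which were taken by symbol from the 24421 genes counted in the mouse mammary carcinoma line 4T1 (strain BALB/cfC3H, wild type) and in 4T1R1 and 4T1R2, populations of 4T1 that had survived repeated exposure to 17-DMAG. 17-DMAG is a small-molecule inhibitor of the chaperone HSP90. RNA was collected from each population without treatment or after 1.5 µM 17-DMAG, in 3 libraries per group and 6 groups. The sample records state 3 selection rounds at 1.5 µM for 48 h and a final exposure of 48 h, whereas the series design states cycles of 1 µg/ml for 24 h and a final exposure of 2 h, so the duration of treatment behind the values is uncertain. The resistant cells were used as whole selected populations, and each population is a single selection. The members were chosen with results of these libraries in view, so that their levels and fold changes are given as a description without P-values.

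CXC chemokines are small secreted proteins that steer leukocytes through receptors coupled to G proteins. Cxcl1, Cxcl2, Cxcl3 and Cxcl5 carry the ELR motif before their first cysteines and draw neutrophils through Cxcr2. Cxcl9, Cxcl10 and Cxcl11 lack that motif, are known as interferon-inducible genes and attract activated T and NK cells through Cxcr3. Cxcl16 is made as a transmembrane protein, is shed by ADAM proteases and binds Cxcr6. Genes of the ELR group are textbook targets of NF-κB, and their messengers are short-lived through AU-rich elements, which are bound by proteins of the Zfp36 family. The RNase Zc3h12a (regnase-1) also degrades inflammatory messengers and recognizes stem-loops in them.

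The ELR genes Cxcl5, Cxcl3, Cxcl1 and Cxcl2 lie in this order on the plus strand of chromosome 5, within 146.6 kb of the GRCm38 build (GENCODE vM21). Cxcl5 occupies chr5:90759360-90761624, Cxcl3 chr5:90786103-90789600, Cxcl1 chr5:90891241-90893115 and Cxcl2 chr5:90903871-90905938. After a gap of 1415.4 kb follow Cxcl9 (chr5:92321347-92328079), Cxcl10 (chr5:92346638-92348889) and Cxcl11 (chr5:92359544-92365485) on the minus strand, within 44.1 kb. Cxcl11 is annotated there as a polymorphic pseudogene. Cxcl16 stands apart, on the minus strand of chromosome 11 at chr11:70453983-70459984. Art3 overlaps Cxcl10 and Cxcl11 from the opposite strand, and Zmynd15 overlaps Cxcl16. Whether the counting used strand is not given in the sources used here, so reads from either partner may have been assigned to the other. Art3 averaged between 3.3 and 6.87 normalized counts in the 6 groups and Zmynd15 between 30.6 and 64.1, which are small beside Cxcl10 and Cxcl16 but of the size of Cxcl11. Cxcl2 and Cxcl3 shared 126 windows of 50 bases, 5.84% and 3.51% of their exonic windows, so a part of their reads cannot be assigned to one of them with certainty. The other members shared none.

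The promoter sequences of 5 members were found in RefSeq (GRCm38.p6): Cxcl1, Cxcl2, Cxcl3, Cxcl9 and Cxcl10. They are shown because both groups are known for regulation from elements close to the start, and because genes of the ELR group with very different counts share an element there. The bases upstream of the RefSeq start are printed, 150 for the ELR genes and 250 for Cxcl9 and Cxcl10, 5′ to 3′ on the strand of the gene. Capitals mark matches to the NF-κB consensus, with overlapping matches on both strands merged, and in Cxcl10 also the match to GAAA, any 2 bases, GAAA, the core of an interferon-stimulated response element.
Cxcl1, chr5:90891095-90891244, plus strand: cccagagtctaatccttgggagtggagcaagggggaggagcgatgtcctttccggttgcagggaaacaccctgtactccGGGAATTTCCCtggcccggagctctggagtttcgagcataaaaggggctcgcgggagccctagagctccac
Cxcl2, chr5:90903749-90903898, plus strand: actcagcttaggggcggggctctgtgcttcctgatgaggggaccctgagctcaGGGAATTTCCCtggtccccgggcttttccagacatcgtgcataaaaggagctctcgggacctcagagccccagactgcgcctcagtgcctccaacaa
Cxcl3, chr5:90785951-90786100, plus strand: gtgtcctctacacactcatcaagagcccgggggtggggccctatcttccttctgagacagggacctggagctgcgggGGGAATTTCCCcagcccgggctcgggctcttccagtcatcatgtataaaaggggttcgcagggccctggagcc
Cxcl9, chr5:92328080-92328329, minus strand: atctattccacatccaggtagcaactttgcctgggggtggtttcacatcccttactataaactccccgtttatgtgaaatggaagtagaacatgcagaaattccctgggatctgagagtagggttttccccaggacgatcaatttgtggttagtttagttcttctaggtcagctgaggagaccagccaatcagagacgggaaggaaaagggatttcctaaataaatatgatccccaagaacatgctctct
Cxcl10, chr5:92348890-92349139, minus strand: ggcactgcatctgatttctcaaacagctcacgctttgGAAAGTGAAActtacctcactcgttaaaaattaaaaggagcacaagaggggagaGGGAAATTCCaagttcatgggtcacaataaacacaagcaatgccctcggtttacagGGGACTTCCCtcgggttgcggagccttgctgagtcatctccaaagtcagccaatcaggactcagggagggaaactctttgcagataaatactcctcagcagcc
The string GGGAATTTCC was present in the windows of Cxcl1, Cxcl2 and Cxcl3, beginning 71, 97 and 73 bases upstream of the start. It was picked from the member promoters, as their most frequent forward-strand match to the NF-κB consensus, so its presence there was given beforehand. Among 32544 promoter windows of 300 bases (250 upstream and 50 downstream), these genes included, it was found on either strand in 29, or 0.0891%. That share tells how rare the string is and tests nothing about the members. The same site matches the NF-κB consensus again on the reverse strand, 1 base further, so that each of these promoters holds a single overlapping site. Cxcl10 matched the consensus at 2 separate places, as GGGAAATTCC 159 bases and GGGACTTCCC 103 bases upstream; 4.53% of all windows matched it on either strand. Cxcl10 also held GAAAGTGAAA 213 bases upstream, a match to that core, which 3.45% of the windows contained on either strand. The AP-1 string TGANTCA was matched 74 bases upstream in Cxcl10 and downstream of the start in Cxcl9, and was present in 7.79% of windows. TATAAA, the TATA box string, was matched 30 bases upstream in Cxcl3 and 195 bases upstream in Cxcl9, and was present in 13.6% of windows. In the Cxcl9 window, neither the NF-κB consensus nor the interferon element core was matched. These matches describe letters and do not show that a factor was bound.

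**Figure D1:**
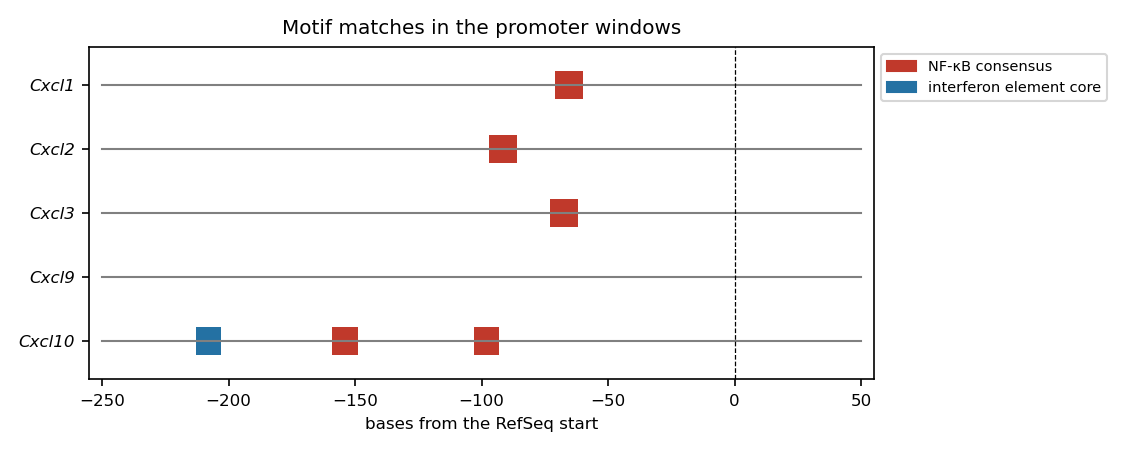
Matches to the NF-κB consensus (red) and to the core of the interferon-stimulated response element (blue) in the promoter windows of 5 CXC chemokine genes, plotted in bases from the RefSeq start, with overlapping matches drawn as a single block. The red blocks of Cxcl1, Cxcl2 and Cxcl3 begin 71, 97 and 73 bases upstream, Cxcl10 has 2 red blocks and 1 blue block, and Cxcl9 has none.

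Library totals ran from 23354461 to 55094630 counts. In 4T1 with 17-DMAG, the libraries numbered 1 and 2 agreed more closely than any other libraries of a group (chi-square of 1.1 per gene, against 2.04 to 2.22 for the 17 remaining pairs). Their totals were 28493864 and 55094630 counts, the second being the highest of the series. They were averaged and counted as 1 sample. The average was taken on counts before scaling, so library 2 weighs more in it. Whether the 2 libraries share reads was not tested. A count appears to be a read and not a read pair, so sampling alone can give more than 1 on this scale. The values of the 17 remaining pairs therefore do not measure variation beyond sampling. This group therefore has n = 2, and 17 libraries remained. The library identifiers of 4T1R1 belong to another number series than those of 4T1 and 4T1R2. What the numbers stand for is not given in the sources used here, so for 4T1R1 against 4T1 anything they mark and the population cannot be told apart. Summed epithelial markers (Epcam, Krt8, Krt18, Krt19, Cdh1) lay between 42560 and 62680 normalized counts in every library. They separated the untreated populations, at 61920 to 62680 in 4T1, 42810 to 44730 in 4T1R1 and 48520 to 49350 in 4T1R2, with 4 of the 5 lower in 4T1R1 (Cdh1 not called) and 3 lower and 1 higher (Cdh1) in 4T1R2 than in 4T1, while Cxcl1 and Cxcl5 were higher; the part of this in the chemokine counts was not tested. By comparison, 10 leukocyte markers summed to 149 to 290, most of it Cd68, and 4 endothelial markers to 4.32 to 17.6. The leukocyte sum was 149 to 207 in untreated 4T1, 240 to 270 in untreated 4T1R1 and 245 to 290 in untreated 4T1R2. It was thus higher in both resistant populations, as Cxcl1 and Cxcl5 were, and the same held for 6 fibroblast markers (688 to 771, 842 to 895 and 920 to 1043, mostly Pdgfra). Between the resistant populations the leukocyte sums overlapped, while Cxcl1 was higher in 4T1R1. Of 4 leukocyte markers tested, 2 were higher (Cd68, S100a8) and 1 lower (Ptprc) in 4T1R1, and 3 were higher (Cd68, S100a8, Csf1r) in 4T1R2 with Ptprc not called. In the same order of groups, S100a8 averaged 2.74, 18.8 and 26.7 normalized counts, Csf1r 10.3, 14.1 and 30.6, Itgam 0, 6.39 and 6.5, and Ptprc 14.9, 5.85 and 10.2. Adgre1 and S100a9 were at 0 in these groups. In 17-DMAG-treated 4T1, where Cxcl1 and Cxcl5 fell, the leukocyte sum was 187 to 228 and the fibroblast sum 400 to 421. The part of other cells in the chemokine counts was not tested beyond these values. In such bulk samples, fewer producing cells and less RNA per cell cannot be told apart.

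The 8 genes fell into a well-counted and a barely counted group. To compare genes, counts were scaled by library size and by transcript length in kb (RPKM). In untreated 4T1 cells Cxcl1 stood at 19.1 ± 2.53 RPKM (SD, n = 3), Cxcl5 at 13.9 ± 1.01, Cxcl16 at 11.8 ± 0.326 and Cxcl10 at 1.59 ± 0.203. The ranges of Cxcl1 (16.3 to 21.1), Cxcl5 (12.8 to 14.7) and Cxcl16 (11.4 to 12) did not overlap at this length. In both untreated resistant populations Cxcl5 was first, at 232 ± 22 RPKM in 4T1R1 and 258 ± 3.38 in 4T1R2, followed by Cxcl1 at 154 ± 6.06 and 121 ± 9.93. Cxcl16 then stood at 27.1 ± 0.886 and 29 ± 0.555 RPKM, and Cxcl10 at 3.13 ± 0.496 and 6.48 ± 1.01. The family sum was 46.6 ± 3.59 RPKM in untreated 4T1, 416 ± 26.5 in 4T1R1 and 415 ± 7.65 in 4T1R2, and the ranges of the resistant populations overlapped. Cxcl5 and Cxcl1 together made up most of that sum, with 29.9% and 40.9% in 4T1, 55.6% and 37% in 4T1R1, and 62.2% and 29.1% in 4T1R2. Cxcl2, Cxcl3, Cxcl9 and Cxcl11 together gave 0.329%, 0.113% and 0.174%. These levels and shares depend on the transcript length used, and in untreated 4T1 the ranking turned with it. With all annotated exons merged, Cxcl5 came to 11.8 RPKM, Cxcl16 to 10.6 and Cxcl1 to 9.7. The range of Cxcl1 (8.26 to 10.7) then overlapped that of Cxcl16 (10.2 to 10.8). For Cxcl1 and Cxcl10 the merged length (1875 and 2252 bases) spans the whole gene, introns included, against 953 and 1094 bases in the transcript. The turned order rests on that longer length. Cxcl5 remained first in untreated 4T1R1 (196, with Cxcl1 at 78.2). In untreated 4T1R2 Cxcl1 came to 61.5 RPKM and Cxcl10 to 3.15, with Cxcl5 (218) and Cxcl16 (25.9) less affected.

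**Figure D2:**
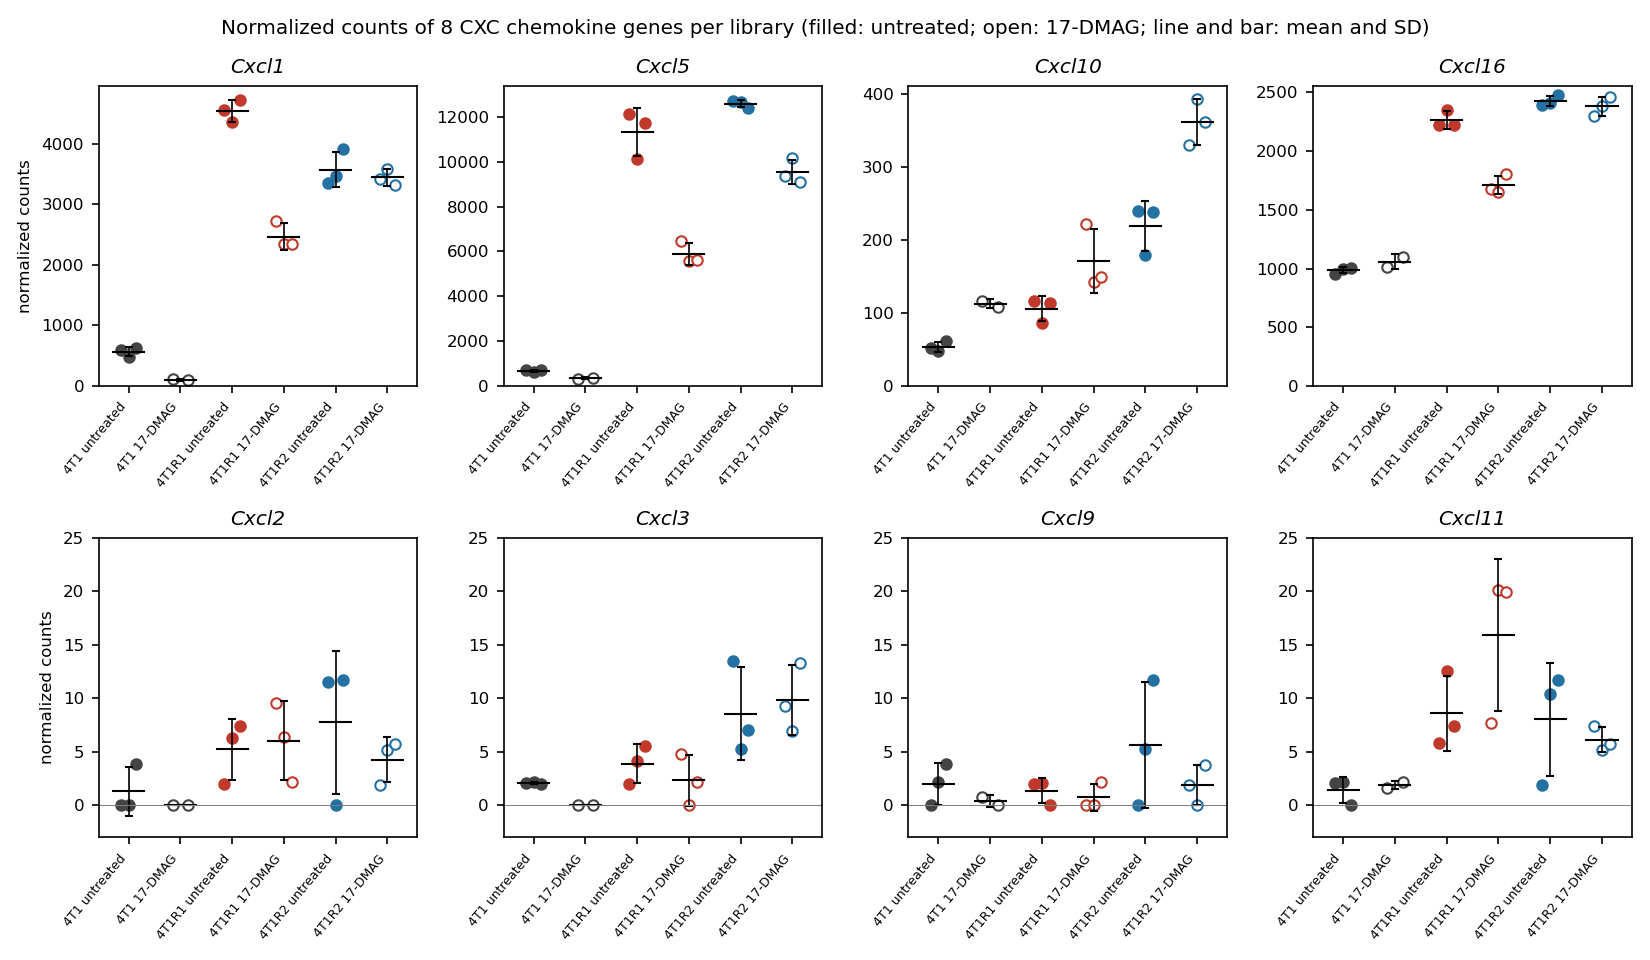
Normalized counts (counts scaled to a common library size, linear axes) of the 8 CXC chemokine genes in each library of the 6 groups; filled points are untreated and open points 17-DMAG-treated, lines are means and bars SD, n = 3 except n = 2 for 17-DMAG-treated 4T1. Cxcl1, Cxcl5 and Cxcl16 are higher in every 4T1R1 and 4T1R2 library than in every 4T1 library, whereas Cxcl2, Cxcl3, Cxcl9 and Cxcl11 have at most 19 reads in any library.

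The comparison of untreated resistant cells with untreated 4T1 asks how the baseline of the family differs after selection. Of the 8 members, 7 had enough counts to be tested and Cxcl9 did not. In 4T1R1, 5 of the 7 were called higher at an adjusted P-value under 0.05 (edgeR's quasi-likelihood test) and the others were not called, where 52.7% of all 13507 genes tested were called, 25.2% higher and 27.5% lower. In 4T1R2, all 7 were called higher, where 52.4% of all genes were called, 25.6% higher and 26.9% lower. The groups did not overlap for 5 of the 7 members in 4T1R1 and for 5 in 4T1R2, and for 56.5% and 57.2% of all genes. As the members were chosen from these data, nothing is read from these counts. The 4 well-counted members were called in both populations, with log2FC from 0.98 to 4.06 in 4T1R1 and from 1.3 to 4.21 in 4T1R2, beside medians over all genes of 0.0075 and 0.0068. A median over the 7 is not given because it falls on a barely counted gene (Cxcl2 in 4T1R1 and Cxcl11 in 4T1R2). The remaining calls, of Cxcl11 in 4T1R1 and of Cxcl2, Cxcl3 and Cxcl11 in 4T1R2, rested on at most 14 reads per library, and the count in 4T1R2 was 4 when a minimum of 10 counts in every library was required and 5 or 6 when any single library of the comparison was left out.

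Cxcl5 showed the largest fold change of the well-counted members between populations. Its product, LIX, is a neutrophil attractant of epithelial cells. The libraries of untreated 4T1 held 718, 624 and 696 normalized counts of Cxcl5, those of untreated 4T1R1 12130, 10100 and 11710, and those of untreated 4T1R2 12710, 12650 and 12400. Every resistant library lay far above every 4T1 library, with no overlap. The difference was 16.6-fold in 4T1R1 (log2FC 4.06, SE 0.062) and 18.5-fold in 4T1R2 (log2FC 4.21, SE 0.062). The resistant populations themselves differed little, by a log2FC of 0.15 (SE 0.048) in favour of 4T1R2, which was no longer called without untreated 4T1R1 replicate 2 (log2FC 0.078) or with DESeq2.

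Cxcl1 (KC), the main neutrophil attractant released by mouse epithelial and stromal cells, was raised in both populations and more in 4T1R1. Untreated 4T1 libraries held 587, 480 and 623 normalized counts, untreated 4T1R1 libraries 4551, 4357 and 4714, and untreated 4T1R2 libraries 3353, 3458 and 3905. The ranges of the 3 populations were separate, with 4T1R1 highest. Cxcl1 was 8.04-fold higher in 4T1R1 (log2FC 3.01, SE 0.067) and 6.32-fold higher in 4T1R2 (log2FC 2.66, SE 0.068) than in 4T1. Between the resistant populations the log2FC of 4T1R2 against 4T1R1 was −0.35 (SE 0.055). Cxcl1 and Cxcl5 therefore stood in opposite order in these populations, and the Cxcl5:Cxcl1 ratio of RPKM values was 0.734 ± 0.0556 for 4T1, 1.51 ± 0.105 for 4T1R1 and 2.14 ± 0.196 for 4T1R2 (SD, n = 3).

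Cxcl2 (MIP-2) and Cxcl3, which share the locus and the promoter element with Cxcl1, were almost silent. Cxcl2 was counted with 0, 0 and 4 reads in untreated 4T1, with 2, 6 and 8 in untreated 4T1R1, and with 12, 0 and 10 in untreated 4T1R2. Cxcl3 was counted with 2 reads in each untreated 4T1 library, with 2, 4 and 6 in untreated 4T1R1, and with 14, 4 and 6 in untreated 4T1R2. The 4T1 and 4T1R1 ranges met or overlapped for both genes, those of 4T1 and 4T1R2 overlapped for Cxcl2, and only the Cxcl3 reads of 4T1R2 all lay above those of 4T1. Their highest group means were 0.225 RPKM for Cxcl2 and 0.313 for Cxcl3, far below the neighbouring Cxcl1. No fold change is given for these genes because untreated 4T1 libraries held at most 4 reads.

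Of the interferon-inducible members, Cxcl10 (IP-10) was the one with a substantial count. Untreated 4T1 libraries held 51.8, 48.1 and 61.4 normalized counts, untreated 4T1R1 libraries 117, 86.6 and 114, and untreated 4T1R2 libraries 240, 180 and 239. The ranges of the 3 populations did not overlap, and 4T1R2 was highest. Cxcl10 was 1.97-fold higher in 4T1R1 (log2FC 0.98, SE 0.19) and 4.08-fold higher in 4T1R2 (log2FC 2.03, SE 0.17) than in 4T1, and 2.08-fold higher in 4T1R2 than in 4T1R1. Cxcl11 was counted with 2, 2 and 0 reads in untreated 4T1, with 6, 12 and 8 in untreated 4T1R1 and with 2, 8 and 10 in untreated 4T1R2. Cxcl9, the member most tied to interferon-γ, was counted with 0 to 4 reads in untreated 4T1, 0 to 2 in 4T1R1 and 0 to 10 in 4T1R2, and did not pass the filter. The call of Cxcl11 in 4T1R1 was lost without untreated 4T1R1 replicate 2, which left 4 members called, and also without untreated 4T1 replicate 3, where Cxcl2 was called in its place.

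Cxcl16 was the most evenly expressed member. Untreated 4T1 libraries held 956, 999 and 1006 normalized counts, untreated 4T1R1 libraries 2223, 2350 and 2220, and untreated 4T1R2 libraries 2390, 2413 and 2479. Both resistant populations lay above 4T1, without overlap. The increase was 2.29-fold in 4T1R1 (log2FC 1.2, SE 0.048) and 2.46-fold in 4T1R2 (log2FC 1.3, SE 0.048). The log2FC of 4T1R2 against 4T1R1 was 0.1 (SE 0.045), which was not called, but was called without untreated 4T1R1 replicate 2 (log2FC 0.13). In the comparison of the resistant populations with each other, 2 members were called higher in 4T1R2 (Cxcl5 and Cxcl10) and 1 lower (Cxcl1), where 38.8% of all genes were called, 19.7% higher and 19% lower. These groups did not overlap for 4 members (Cxcl16 in addition) and for 46.1% of all genes.

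**Figure D3:**
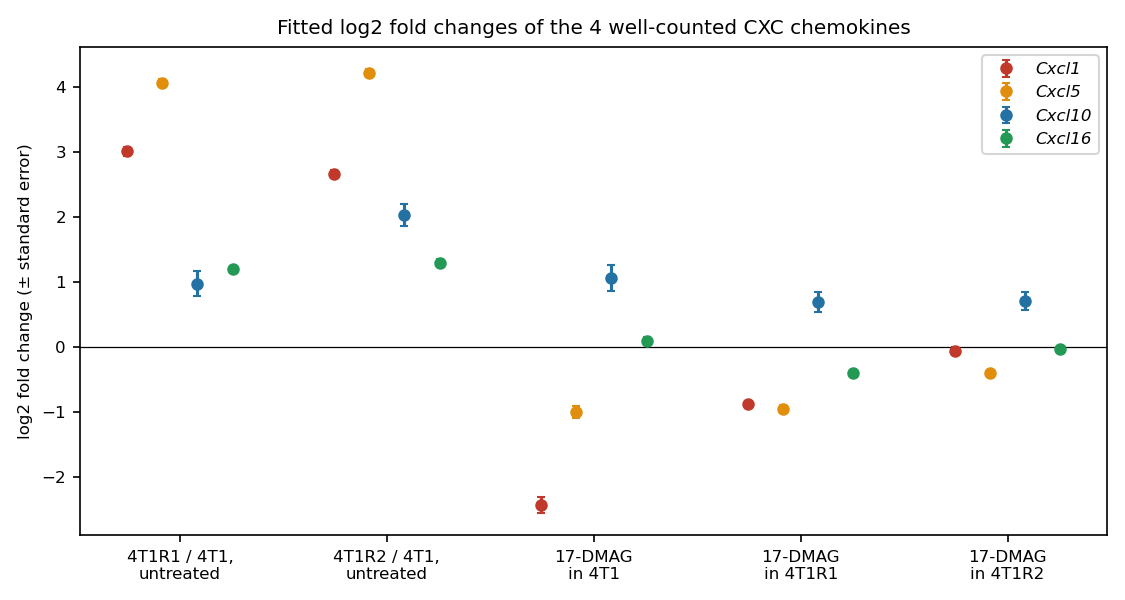
Fitted log2 fold changes with their standard errors for Cxcl1, Cxcl5, Cxcl10 and Cxcl16, in untreated resistant cells against untreated 4T1 (the 2 columns on the left) and after 17-DMAG in each population (the 3 columns on the right). All 4 genes lie above 0 in both resistant populations, and after 17-DMAG only Cxcl10 lies clearly above 0, at 1.06, 0.69 and 0.71.

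Treatment with 17-DMAG was compared with no treatment within each population, to ask whether resistant cells still react to the drug. After 17-DMAG, Cxcl1 and Cxcl5 fell in 4T1 and 4T1R1, Cxcl5 also fell in 4T1R2, and Cxcl10 rose in all 3 populations. In 4T1, 1 member was called higher and 2 lower, where 36.4% of all genes were called (18.4% higher, 17.9% lower). In 4T1R1, 1 was called higher and 3 lower, where 28.2% of all genes were called (13.9% higher, 14.3% lower). In 4T1R2, 1 was called higher and 1 lower, where 10.5% of all genes were called (6.18% higher, 4.35% lower). Groups did not overlap for 5, 4 and 2 members, and for 56.5%, 39% and 26.5% of all genes. Nothing is read from these counts for the same reason as above. The medians over the 7 tested members were −1, −0.4 and −0.053, beside medians over all genes between −0.0086 and 0.00065. All 3 medians of members depend on the ranks of the barely counted Cxcl2, Cxcl3 and Cxcl11, so they are not compared between populations. In 4T1, Cxcl2 and Cxcl3 had 0 reads after 17-DMAG and at most 4 without it. The log2FC of the well-counted members in 4T1 were −2.42 (Cxcl1), −1 (Cxcl5), 0.097 (Cxcl16) and 1.06 (Cxcl10). In the same order of genes they were −0.88, −0.94, −0.4 and 0.69 in 4T1R1, and −0.053, −0.4, −0.028 and 0.71 in 4T1R2. Untreated libraries of a population are shared by its comparison with 4T1 and by its drug response, so these comparisons are not independent of each other.

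Cxcl1 showed the steepest drop in 4T1. After 17-DMAG the 4T1 samples held 115 and 92.9 normalized counts, against 480 or more in each untreated library. The 4T1R1 libraries held 2721, 2335 and 2338 after 17-DMAG, against at least 4357 without it, and the 4T1R2 libraries held 3421, 3588 and 3313, within the untreated range of 3353 to 3905 or just below it. The drop was 5.36-fold in 4T1 (log2FC −2.42, SE 0.13) and 1.84-fold in 4T1R1 (log2FC −0.88, SE 0.056), without overlap of groups, whereas in 4T1R2 the groups overlapped and the log2FC was −0.053 (SE 0.055). The difference of the response from that of 4T1 was 1.54 (log2, SE 0.14) in 4T1R1 and 2.37 (SE 0.14) in 4T1R2. In level, the order over all groups was 4T1 with 17-DMAG, 4T1 untreated, 4T1R1 with 17-DMAG, 4T1R2 with 17-DMAG, 4T1R2 untreated and 4T1R1 untreated, in which the 4T1R2 groups were the only neighbours that overlapped. With 17-DMAG, 4T1R1 cells still held 2465 ± 222 normalized counts (n = 3), above the 563 ± 74.6 (n = 3) of untreated 4T1.

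Cxcl5 was reduced in each population, least in 4T1R2. After 17-DMAG the 4T1 samples held 318 and 369 normalized counts, the 4T1R1 libraries 6461, 5572 and 5624, and the 4T1R2 libraries 9348, 10160 and 9111. All lay below the untreated libraries of the population concerned. The drop was 1.99-fold in 4T1 (log2FC −1, SE 0.097), 1.92-fold in 4T1R1 (log2FC −0.94, SE 0.049) and 1.32-fold in 4T1R2 (log2FC −0.4, SE 0.048). The difference of response from 4T1 was 0.053 (log2, SE 0.11) in 4T1R1, which was not called, and 0.6 (SE 0.11) in 4T1R2. In the order of levels, 17-DMAG-treated 4T1R2 overlapped untreated 4T1R1 (9111 to 10160 against 10100 to 12130), and all other neighbouring groups were separate. The ratio of Cxcl5 to Cxcl1 in RPKM went from 0.734 ± 0.0556 to 2.04 ± 0.514 (n = 2) in 4T1, from 1.51 ± 0.105 to 1.45 ± 0.00932 in 4T1R1 and from 2.14 ± 0.196 to 1.68 ± 0.032 in 4T1R2.

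Cxcl2 and Cxcl3 had 0 reads in each 17-DMAG-treated 4T1 library, which is not distinguishable at this depth from the 0 to 4 reads of the untreated ones. In 17-DMAG-treated 4T1R1 they had 2 to 10 and 0 to 5 reads, and in 17-DMAG-treated 4T1R2 2 to 6 and 8 to 14. No response of either gene was called in any population.

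Cxcl10 rose after 17-DMAG in each population, whereas Cxcl5 fell in each. After 17-DMAG the 4T1 samples held 117 and 108 normalized counts, the 4T1R1 libraries 222, 142 and 149, and the 4T1R2 libraries 330, 394 and 361. Every treated library lay above every untreated library of its population. The increase was 2.09-fold in 4T1 (log2FC 1.06, SE 0.2), 1.62-fold in 4T1R1 (log2FC 0.69, SE 0.16) and 1.64-fold in 4T1R2 (log2FC 0.71, SE 0.14). In 4T1R1 replicate 1 stood above the others, and without it the log2FC was 0.45 and remained called. The responses of 4T1R1 and 4T1R2 differed from that of 4T1 by −0.37 (log2, SE 0.26) and −0.35 (SE 0.25), and neither difference was called. In the order of levels, untreated 4T1 was lowest, untreated 4T1R1 and 17-DMAG-treated 4T1 overlapped, 17-DMAG-treated 4T1R1 and untreated 4T1R2 overlapped, and 17-DMAG-treated 4T1R2 was highest. In 4T1, the ratio of Cxcl10 to Cxcl1 in RPKM shifted from 0.0833 ± 0.00569 (n = 3) to 0.95 ± 0.0895 (n = 2). In 4T1R1 it went from 0.0203 ± 0.00264 to 0.0598 ± 0.0097, and in 4T1R2 from 0.0536 ± 0.00849 to 0.0915 ± 0.00654. Cxcl11 was counted with 2 and 2 reads (the first an average) in 17-DMAG-treated 4T1, with 8, 19 and 18 in 4T1R1 and with 8, 6 and 6 in 4T1R2, and its response was not called. Cxcl9 had at most 4 reads in any treated library.

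The drug response of Cxcl16 was called in 4T1R1 and in neither other population. After 17-DMAG the 4T1 samples held 1015 and 1102 normalized counts, the 4T1R1 libraries 1677, 1654 and 1803, and the 4T1R2 libraries 2301, 2382 and 2459. The treated 4T1R1 libraries lay below the untreated ones, and the 4T1R2 groups overlapped. The log2FC was −0.4 (SE 0.046, 1.32-fold lower) in 4T1R1 and −0.028 (SE 0.044) in 4T1R2. In 4T1 it was 0.097 (SE 0.057), which was not called and became −0.019 when libraries were scaled by their totals alone. The response of 4T1R1 differed from that of 4T1 by −0.5 (log2, SE 0.073; −0.35 with scaling by totals alone), and that of 4T1R2 by −0.12 (SE 0.072), which was not called. Over all members, 1 was called with a more positive response in 4T1R1 than in 4T1 (Cxcl1) and 1 with a more negative one (Cxcl16), where 18.2% of all genes were called (9.16% more positive, 9.08% more negative). In 4T1R2, 2 were called with a more positive response than in 4T1 (Cxcl1 and Cxcl5), where 17.8% of all genes were called (9.62% more positive, 8.16% more negative). The family sum fell from 46.6 ± 3.59 to 26.6 ± 0.772 RPKM (n = 2) in 4T1, from 416 ± 26.5 to 230 ± 18.7 in 4T1R1 and from 415 ± 7.65 to 352 ± 16.3 in 4T1R2, without overlap of treated and untreated libraries.

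Across the 17 libraries, Cxcl5 was most like Cxcl1 (Pearson's r = 0.966 on log2 of normalized counts plus 1) and Cxcl16 (r = 0.964) among the members, while Cxcl10 and Cxcl1 had r = 0.521. Over all genes averaging 100 normalized counts or more, those with the highest r to Cxcl1 were Ptpn22 (0.991), Nedd9 (0.989) and Csf3 (0.989). For Cxcl5 they were Tns4, Tgfbr3 and Ptgs1 (0.992 each), for Cxcl10 Proser2 (0.966), Supt5 (0.963) and Vps26a (0.961), and for Cxcl16 Lgals3 (0.986), Lamb3 (0.986) and Lgals3bp (0.982). The low-count members reached lower values, with Ndel1 (0.823) nearest to Cxcl2, Irx2 (0.878) to Cxcl3 and Tet2 (0.873) to Cxcl11. These coefficients describe points that share 6 groups and their libraries.

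Of 7 other CXC ligands listed (Cxcl12, Cxcl13, Cxcl14, Cxcl15, Cxcl17, Pf4, Ppbp), 5 had any count and 2 were tested. Ppbp, the precursor of the platelet chemokine CXCL7, lies between Cxcl5 and Cxcl3 and had 30.6 ± 7.54 normalized counts (n = 3) in untreated 4T1, 56.5 ± 3.42 in untreated 4T1R1 and 58.6 ± 3.32 in untreated 4T1R2. It was higher in 4T1R1 (log2FC 0.89, adjusted P-value 0.00219) and in 4T1R2 (log2FC 0.94, adjusted P-value 0.00134) than in 4T1. After 17-DMAG it rose in 4T1 to 72 ± 5.66 (n = 2; log2FC 1.24, adjusted P-value 0.000146), where Cxcl5, 6.9 kb away, and Cxcl1 fell. Neither resistant population showed a called response of Ppbp (log2FC −0.26, adjusted P-value 0.441, in 4T1R1; log2FC 0.27, adjusted P-value 0.502, in 4T1R2). Cxcl17 passed in no comparison and averaged between 4.24 and 11 normalized counts.

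Among CXC receptors, 8 genes were in the table, 5 had a count and 4 were tested. The scavenger receptor Ackr3 (Cxcr7) was the most abundant by count, with means of 786 to 1272 normalized counts. It was lower in untreated 4T1R1 (log2FC −0.28, adjusted P-value 0.000161) and 4T1R2 (log2FC −0.57, adjusted P-value 2.93e-10) than in 4T1 and fell after 17-DMAG in 4T1 (log2FC −0.44, adjusted P-value 1.38e-06). Cxcr3, the receptor of Cxcl9, Cxcl10 and Cxcl11, had 194 ± 29.1 normalized counts in untreated 4T1 (n = 3) and 101 ± 7.42 after 17-DMAG (n = 2; log2FC −0.93, adjusted P-value 4.02e-05), where Cxcl10 rose. It was also lower in untreated 4T1R1 (log2FC −0.74, adjusted P-value 7.57e-05), whereas 4T1R2 did not pass (log2FC −0.23, adjusted P-value 0.192). Neither receptor passed after 17-DMAG in 4T1R1 or 4T1R2. Cxcr2, the receptor of the ELR ligands, averaged at most 5.1 normalized counts in any group, and Cxcr1, Cxcr4 and Ackr1 had no read. Cxcr6, the receptor of Cxcl16, and Cxcr5 were tested and passed in no comparison.

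Of 14 NF-κB subunits, inhibitors and kinases, 12 were higher and 2 lower in untreated 4T1R1 than in 4T1, and 8 were higher and 1 lower in 4T1R2, with medians of 0.41 and 0.2 (log2). Of all genes tested, 25.2% were higher and 27.5% lower in 4T1R1, and 25.6% and 26.9% in 4T1R2. The 2 lower in 4T1R1 were the kinase genes Chuk (1937 ± 111 normalized counts, against 2241 ± 17.6 in untreated 4T1) and Ikbkb (1920 ± 55.7 against 2210 ± 112). After 17-DMAG, 10 were lower and 2 higher in 4T1, 10 lower and 1 higher in 4T1R1, and 6 lower and the others not called in 4T1R2, with medians of −0.69, −0.3 and −0.15. The shares of all genes were 17.9% lower and 18.4% higher in 4T1, 14.3% and 13.9% in 4T1R1, and 4.35% and 6.18% in 4T1R2. The 2 higher in 4T1 were Chuk (2509 ± 41.4 normalized counts, n = 2) and Ikbkg (1521 ± 94.4, n = 2, against 1241 ± 85.2 untreated). Nfkbia, which encodes the inhibitor IκBα and is a classical NF-κB target, had 1216 ± 39.8 normalized counts in untreated 4T1 and 283 ± 11.6 after 17-DMAG (log2FC −2.1, adjusted P-value 7.16e-27). It fell less in 4T1R1 (log2FC −0.59, adjusted P-value 3.9e-14) and in 4T1R2 (log2FC −0.16, adjusted P-value 0.00827), and both differences from 4T1 passed as interactions (1.52, adjusted P-value 1.99e-18, and 1.94, adjusted P-value 4.27e-22). The call in 4T1R2 was lost without untreated 4T1R2 replicate 3 (adjusted P-value 0.108). Relb, a subunit of the non-canonical pathway, fell in 4T1 (log2FC −1.53, adjusted P-value 2.72e-15) and in 4T1R1 (log2FC −0.59, adjusted P-value 1.86e-07), and was not called in 4T1R2 (log2FC −0.24, adjusted P-value 0.0549), where 5 of 15 alternatives did call it. Bcl3, a nuclear IκB protein, was higher in untreated 4T1R1 (log2FC 1.42, adjusted P-value 7.16e-15) and 4T1R2 (log2FC 0.72, adjusted P-value 8.62e-07) and fell in 4T1 after 17-DMAG (log2FC −1.44, adjusted P-value 4.93e-10). With 17-DMAG its mean was also lower in 4T1R1, at 245.3 ± 11 normalized counts against 383.4 ± 18.5. In 4T1R2 it was 213.7 ± 5.64 against 235.5 ± 13.

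Among 8 genes that control the life of chemokine messengers, 5 were higher and 1 lower in untreated 4T1R1 and 6 higher and 1 lower in 4T1R2. Of all genes tested, 25.2% were higher and 27.5% lower in 4T1R1, and 25.6% and 26.9% in 4T1R2. Zc3h12a, an RNase that degrades inflammatory messengers, was higher in both untreated resistant populations, with 249 ± 11.5 normalized counts in untreated 4T1, 1954 ± 45.7 in 4T1R1 (log2FC 2.97, adjusted P-value 5.96e-31) and 1759 ± 44.1 in 4T1R2 (log2FC 2.82, adjusted P-value 6.86e-30). It fell after 17-DMAG in 4T1 (log2FC −1.14, adjusted P-value 2.54e-10), 4T1R1 (log2FC −1.07, adjusted P-value 1.93e-17) and 4T1R2 (log2FC −0.4, adjusted P-value 6.16e-06). After 17-DMAG, 6 of the 8 genes were lower in 4T1 and the others not called, 6 lower and 1 higher in 4T1R1, and 5 lower and 1 higher in 4T1R2. The shares of all genes were 17.9% lower and 18.4% higher in 4T1, 14.3% and 13.9% in 4T1R1, and 4.35% and 6.18% in 4T1R2. Zfp36l1 and Zfp36l2, which promote decay of AU-rich messengers, fell in 4T1 (log2FC −1.15, adjusted P-value 2.29e-18, and −0.99, adjusted P-value 4.37e-25) and by less in 4T1R2 (log2FC −0.3, adjusted P-value 4.56e-05, and −0.15, adjusted P-value 0.000675), with interactions of 0.86 (adjusted P-value 8.31e-11) and 0.84 (adjusted P-value 4.28e-18). In 4T1R1 their means went from 2056 to 1550 and from 10720 to 8207 normalized counts, without overlap of groups. Zfp36 averaged 451.1 normalized counts in untreated 4T1 and 233.3 after 17-DMAG (n = 2). Its means went from 489.5 to 410.8 in 4T1R1 and from 835.6 to 675.3 in 4T1R2, where the groups overlapped. Elavl1, which encodes the stabilizing protein HuR, was lower in both untreated resistant populations (log2FC −0.45, adjusted P-value 1.94e-16, and −0.34, adjusted P-value 1.23e-12).

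**Figure D4:**
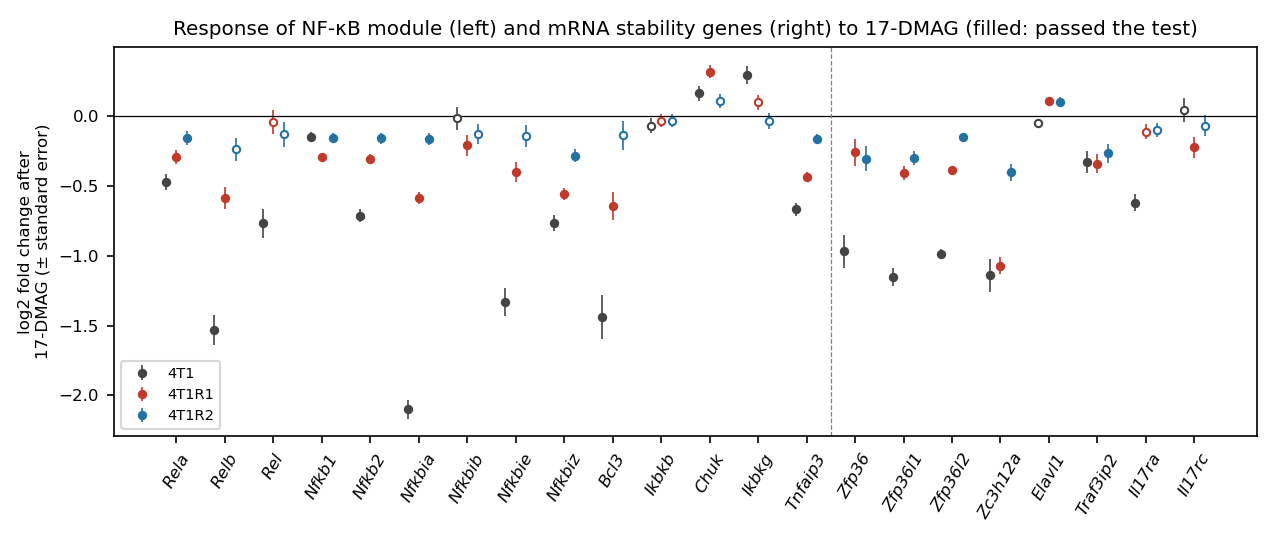
Log2 fold changes after 17-DMAG with standard errors for 14 genes of the NF-κB module and, right of the dashed line, 8 genes that act on chemokine messengers, in 4T1 (grey), 4T1R1 (red) and 4T1R2 (blue); filled points passed an adjusted P-value under 0.05. The lowest point is Nfkbia in 4T1, at −2.1, and in 4T1R2 the filled points are 6 of 14 on the left and 6 of 8 on the right.

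The interferon module of 16 genes, of which 14 were tested, was mostly higher at baseline. In untreated 4T1R1, 10 were higher and 1 lower, and in 4T1R2 8 were higher and 2 lower. Of all genes tested, 25.2% were higher and 27.5% lower in 4T1R1, and 25.6% and 26.9% in 4T1R2. Irf7, the amplifier of the interferon response, was higher in 4T1R1 (log2FC 1.7, adjusted P-value 1.1e-20) and 4T1R2 (log2FC 1.73, adjusted P-value 8.97e-21), and so was the receptor chain gene Ifnar2 (log2FC 1.12, adjusted P-value 6.4e-20, and 1, adjusted P-value 4.24e-18). After 17-DMAG, 2 genes were higher and 5 lower in 4T1, a split that became 0 and 8 with scaling by totals alone. In 4T1R1, 6 were lower and the others not called. In 4T1R2, 0 passed in edgeR's quasi-likelihood test (3 at an unadjusted P-value under 0.05) and 0 in DESeq2. The shares of all genes were 18.4% higher and 17.9% lower in 4T1, 13.9% and 14.3% in 4T1R1, and 6.18% and 4.35% in 4T1R2. Irf1 and Ifngr2 were lower in 4T1 (log2FC −0.43, adjusted P-value 1.67e-06, and −0.63, adjusted P-value 2.7e-10) and 4T1R1 (log2FC −0.21, adjusted P-value 0.0025, and −0.35, adjusted P-value 2.39e-06), where Cxcl10 rose. Ifng had no read in any library, and Ifnb1 averaged at most 2.16 normalized counts. Of 6 genes for the processing and clearance of CXC proteins, 4 were tested. Adam10, the main sheddase of Cxcl16, was lower in 4T1R1 (log2FC −0.28, adjusted P-value 9.75e-07) and 4T1R2 (log2FC −0.21, adjusted P-value 9.55e-05), and Adam17 was higher (log2FC 0.28, adjusted P-value 4.14e-07, and 0.19, adjusted P-value 0.000201).

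The genes around the members differed in both directions, as did all genes tested. Of 85 other genes in the table within 500 kb of a member, 56 were tested. In untreated 4T1R1, 20 were higher and 15 lower, and in 4T1R2 15 were higher and 17 lower, with medians of 0.058 and −0.011 (log2). Of all genes tested, 25.2% were higher and 27.5% lower in 4T1R1, and 25.6% and 26.9% in 4T1R2. An excess of neighbours over these shares was not tested. Mthfd2l, an enzyme gene of folate metabolism 25.2 kb beyond Cxcl2, was lower in 4T1R1 (log2FC −0.73, adjusted P-value 5.71e-07) and 4T1R2 (log2FC −0.48, adjusted P-value 0.000399), and so was the growth factor gene Btc, 451.3 kb beyond Cxcl2 (log2FC −1.33, adjusted P-value 6.43e-10, and −0.74, adjusted P-value 3.5e-05). On the other flank, 250.5 kb before Cxcl5, Afp (α-fetoprotein) was lower by a log2FC of −2.58 (adjusted P-value 6.5e-13) and −3.29 (adjusted P-value 1.62e-14). U90926, 105.9 kb from Cxcl9, was higher in the resistant populations, from 3.79 ± 3.74 normalized counts in 4T1 to 55.2 ± 12.2 in 4T1R1 (log2FC 3.83, adjusted P-value 3.26e-09) and 102 ± 4.43 in 4T1R2 (log2FC 4.72, adjusted P-value 2.3e-12). Ppef2, 65.1 kb from Cxcl9, was also higher (log2FC 2.49, adjusted P-value 0.00048, and 2.47, adjusted P-value 0.000667). After 17-DMAG, 8 neighbours were higher and 15 lower in 4T1 (6 and 26 with scaling by totals alone), 4 higher and 18 lower in 4T1R1, and 1 higher and 1 lower in 4T1R2. The shares of all genes were 18.4% higher and 17.9% lower in 4T1, 13.9% and 14.3% in 4T1R1, and 6.18% and 4.35% in 4T1R2. Areg, the amphiregulin gene beyond Mthfd2l, fell after 17-DMAG in 4T1 (log2FC −0.98, adjusted P-value 1.93e-14) and 4T1R1 (log2FC −0.3, adjusted P-value 0.000321), as Cxcl1 did, but did not pass in either untreated comparison (adjusted P-values 0.08 and 0.46), although in 4T1R1 it passed without untreated 4T1 replicate 1 or without untreated 4T1R1 replicate 3.

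**Figure D5:**
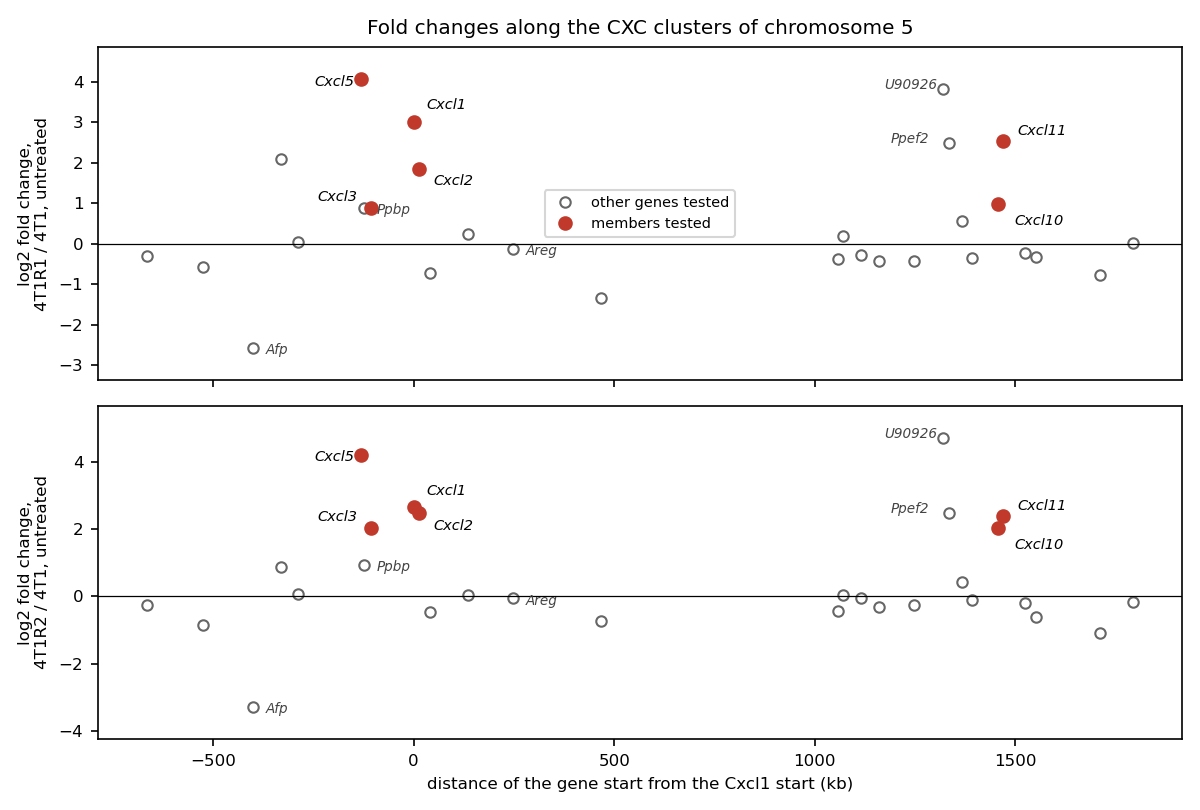
Log2 fold changes of the members tested (red) and of other genes tested within 500 kb of a member (open circles) on chromosome 5, in untreated 4T1R1 (top) and 4T1R2 (bottom) against untreated 4T1, by distance of the gene start from that of Cxcl1 in kb. The members lie above 0 in both panels, while the other genes lie on both sides of 0, with U90926 highest and Afp lowest in each.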

How the data were processed

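Whole read counts per gene symbol for 18 libraries, 3 per group, were deposited by the authors without normalization; ribosomal RNA was depleted and dUTP-marked libraries were sequenced. The submitters' processing notes name bcl2fastq 2.20, STAR, featureCounts, Subread 1.6.2 and mm10/GRCm38; the use of strand and of reads with several matches is not given in the sources used here. Of counts from 1 to 12, 65.6% to 70.8% were even, so a count appears to be a read and not a pair. Libraries are separate cultures according to the series design, and 2 of them were averaged (17 used).

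Counts were fitted with edgeR 4.0.16 in R 4.3.3 (TMM, filterByExpr, quasi-likelihood test, group means) over 13507 genes, with Benjamini-Hochberg adjustment and a threshold of 0.05. The common biological coefficient of variation was 3.76%. For normalized counts, each count was divided by its library's effective (TMM) size and then multiplied by the mean effective size, 30971006. RPKM used the longest RefSeq-matched transcript of each member. Symbols were matched to GENCODE vM21 for 23376 of 24421 genes. Motifs were searched on both strands of 32544 RefSeq promoter windows.

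The members and the gene lists were chosen with earlier results of these data known. All members are named; other genes are list members or neighbours that passed in at least 1 comparison, and for each member the 3 genes most like it. The code was tested on simulated data. Alternatives were scaling by RLE or by totals alone, a filter dropped or raised to 10 counts in each library, DESeq2 1.42.0, fits restricted to the groups compared, 18 libraries with and without the replicate number as a block, leaving out Rn45s and leaving out each library; the length from merged exons was added after seeing the data. Figures were drawn with matplotlib 3.10.9. No other columns of values were in the table.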

Additional observations from a re-analysis of the deposited data

Results flagged for a closer look

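Listed here are CXC genes whose response to 17-DMAG differed from that of 4T1 by the interaction term of the fit at an adjusted P-value under 0.05, a threshold that 18.2% of all genes passed in 4T1R1 and 17.8% in 4T1R2. For the members Cxcl1, Cxcl5 and Cxcl16, which were chosen with results in view, the values are a description and no P-value is given. For Cxcl1, the difference from 4T1 was 1.54 in 4T1R1 and 2.37 in 4T1R2 (log2). The drop was weaker in 4T1R1, and in 4T1R2 no response was called (log2FC −0.053, SE 0.055). For Cxcl5 it was 0.596 in 4T1R2, and for Cxcl16 it was −0.501 in 4T1R1, where the transcript fell after 17-DMAG as it did not in 4T1. The ligand gene Ppbp, which rose in 4T1, differed by −1.5 in 4T1R1 (adjusted P-value 0.00138) and by −0.973 in 4T1R2 (adjusted P-value 0.0402), the latter being lost in 10 of 20 alternatives. The receptor gene Ackr3, which fell in 4T1, differed by 0.437 in 4T1R1 (adjusted P-value 0.000505) and by 0.318 in 4T1R2 (adjusted P-value 0.0137). The latter was lost without the third replicate of 17-DMAG-treated 4T1 (adjusted P-value 0.103). Cxcr3 differed by 0.786 in 4T1R1 (adjusted P-value 0.0176) and by 0.763 in 4T1R2 (adjusted P-value 0.0172), each lost when any of 4 single libraries was left out. All 10 differences share the 4T1 libraries, of which the treated ones count as 2 samples.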

How the results depend on the processing

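Every call of Cxcl1, Cxcl5, Cxcl10 and Cxcl16 against untreated 4T1, after 17-DMAG or in the difference of responses was kept, with its direction, in the alternatives run. Of 387 recomputed counts of calls (members, pathway genes or locus neighbours in a comparison), 377 stayed within 1.5 times the value reported. The members called higher in untreated 4T1R2 were 4 of 4 tested, in place of 7 of 7, both with a minimum of 10 counts in every library and with only the groups compared, because Cxcl2, Cxcl3 and Cxcl11 then are not tested. Locus neighbours with a 4T1R1 response different from 4T1 numbered 20 in place of 11 with scaling by totals alone, which shifts the median log2FC of all genes by −0.114 for 17-DMAG in 4T1 and to 0.146 for that difference. Leaving out each library in turn gave 4 to 5 members called in untreated 4T1R1 and 5 to 6 in untreated 4T1R2, and the reported 3, 3, 4, 2, 2 and 2 in the other comparisons. Neighbours called were 15 to 21 after 17-DMAG in 4T1, 1 to 2 in 4T1R2 and 6 to 14 for the 4T1R2 difference in response. Same-numbered libraries did not deviate together (0 of 45 pairs with r over 0.1, from −0.0516 to 0.0496, and 6 of 18 libraries closest to their own number), so numbers do not pair the libraries. With the replicate block on 18 libraries, 5, 6, 3, 3, 4, 2, 2 and 2 members were called, as in 18 libraries without it. DESeq2 called 2 instead of 3 members between the resistant populations. Depth limits Cxcl2, Cxcl3, Cxcl9 and Cxcl11, which have 0 to 19 reads per library. Repeated libraries come from a single selection each, so P-values rest on the spread between libraries of a population and not between selections. The part of that spread that goes beyond sampling was not tested, as a count appears to be a read and not a pair.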
